A study of Rattus norvegicus with 18 samples.

Results

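Poly(A) RNA of the C6-C8 dorsal root ganglia (DRG) of adult Lister hooded rats was examined for 8 genes, the stanniocalcins *Stc1* and *Stc2* and the hypoxia-response genes *Vegfa*, *Adm*, *Egln3*, *Bnip3*, *Hif1a* and *Epas1*, of 15075 RefSeq identifiers in the count table. The set was chosen by *Stc1*, selected on its higher counts in both injured groups of these same rats, and the other genes were added to see whether a hypoxia response went with it. The 6 naïve rats were unoperated and received no vector. The 6 bPYX+GFP rats had a bilateral pyramidotomy (bPYX), a cut through the left and right corticospinal tract in the brainstem, and AAV1-CMV-EGFP, a viral vector for green fluorescent protein, injected into forelimb flexors on a single side. The 6 bPYX+NT3 rats had the same injury and AAV1-CMV-NT3, which encodes human neurotrophin-3. The CMV promoter is not specific to a cell type, and since the naïve rats had neither surgery nor vector, the effects of injury, surgery and AAV1 cannot be told apart. Ganglia of the treated side were taken 10 weeks after surgery and pooled within each rat, so that a library is an animal.

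Stanniocalcins are secreted glycoprotein hormones, and in mammals both bind pappalysins, the proteases that free insulin-like growth factors from their binding proteins. Hypoxia-inducible factors (HIF) are made of an oxygen-labile alpha subunit, encoded by *Hif1a* or *Epas1*, and a stable beta subunit. Prolyl hydroxylases such as Egln3 mark the alpha subunit for destruction while oxygen is present, so HIF activity is set largely on the protein and is read in RNA through its target genes, among them *Vegfa*, *Adm*, *Egln3* and *Bnip3*.

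HIF binds DNA at the core letters ACGTG or GCGTG, and the upstream sequences of 3 members are shown because they are the HIF subunit and targets on which the comparison rests. RefSeq start sites of build GRCr8 were available for 7 of the 8 members, not for *Stc1*, and the 250 bases before each start were searched on both strands. The letters were found before *Bnip3* and *Hif1a*, and not in these windows before *Adm*, *Egln3*, *Epas1*, *Stc2* or either listed start of *Vegfa*. Of 33465 windows of this length in the whole annotation, 36.7% held ACGTG or GCGTG, so that a match alone sets no gene apart. The capitals mark the matches, which read CACGT or CACGC where the motif lies on the other strand, and ACGTG matches on both strands overlap in CACGTG. *Bnip3* (chr1:203154963-203155212, minus strand) held 2 ACGTG and 2 GCGTG matches, *Hif1a* (chr6:98359648-98359897, plus strand) held 3 ACGTG matches and *Adm* (chr1:174179950-174180199, plus strand) held none. All are printed 5′ to 3′ along the gene.
Bnip3: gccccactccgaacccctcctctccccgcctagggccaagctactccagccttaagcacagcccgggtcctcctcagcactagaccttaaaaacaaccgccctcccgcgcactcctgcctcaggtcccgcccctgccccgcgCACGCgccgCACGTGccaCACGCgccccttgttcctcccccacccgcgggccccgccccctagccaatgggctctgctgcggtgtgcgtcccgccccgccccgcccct
Hif1a: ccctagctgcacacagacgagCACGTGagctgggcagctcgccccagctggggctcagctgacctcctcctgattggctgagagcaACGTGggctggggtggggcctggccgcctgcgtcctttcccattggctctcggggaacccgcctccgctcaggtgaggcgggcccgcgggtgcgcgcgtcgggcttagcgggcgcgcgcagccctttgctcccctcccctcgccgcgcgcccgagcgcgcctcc
Adm: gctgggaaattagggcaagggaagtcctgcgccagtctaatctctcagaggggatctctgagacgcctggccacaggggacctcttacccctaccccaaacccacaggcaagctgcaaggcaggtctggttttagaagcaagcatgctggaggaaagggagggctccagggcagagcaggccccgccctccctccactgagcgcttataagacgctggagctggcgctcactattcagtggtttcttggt

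The libraries held from 10057787 to 16002410 read-pairs on genes, and 13428 to 13873 genes had reads in a rat. The groups are those that the labels give to the columns of the count table. Each column matched 1 deposited file per rat exactly in 18 of 18 rats, but for 17 of these rats the title recorded with the file names another group. Rat 57 (bPYX+GFP) and rat 11 (bPYX+NT3) stood apart in how their reads were assigned, with 31.7% and 30.8% of read-pairs on no gene and 3.31% and 3.41% on overlapping genes, against 32.5% to 34.6% and 2.79% to 3.04% in the other rats. All 5 neuron, 4 satellite glia, 5 Schwann cell, 6 endothelium and 5 fibroblast markers looked at had over 10 normalized counts in the median rat. Normalized counts are counts scaled by the TMM library size to the mean size of the 18 rats.

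*Stc1* (NM_031123) was higher in most injured rats. The normalized counts in naïve rats 41, 42, 43, 44, 45 and 49 were 149.8, 113.7, 98.7, 103.6, 124.6 and 142.3. In bPYX+GFP rats 5, 15, 18, 21, 52 and 57 they were 287.9, 237.8, 258.0, 202.4, 157.3 and 111.4, and in bPYX+NT3 rats 2, 11, 17, 23, 39 and 40 they were 299.5, 176.4, 153.8, 284.0, 286.1 and 143.2. In each injured group 5 of 6 rats lay above every naïve rat, and rats 57 and 40 did not. Naïve rats had a mean of 122.1 ± 20.7 (SD, n = 6), injured rats with GFP 209.1 ± 65.9 and those with NT3 223.8 ± 73.3, and in edgeR the injured groups had 1.71-fold (log2 fold change 0.78, SE 0.201) and 1.83-fold (0.87, SE 0.201) the naïve level. Both values use the same naïve rats, and because they chose the gene they are given without a test. The spread was wider after injury, with coefficients of variation of 17.0%, 31.5% and 32.8% in the same order. Without rat 57 the difference of bPYX+GFP from naïve rats was 0.90 (SE 0.154) on the log2 scale. In bulk ganglia, more cells that express a gene and more RNA per cell cannot be told apart.

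**Figure D1:**
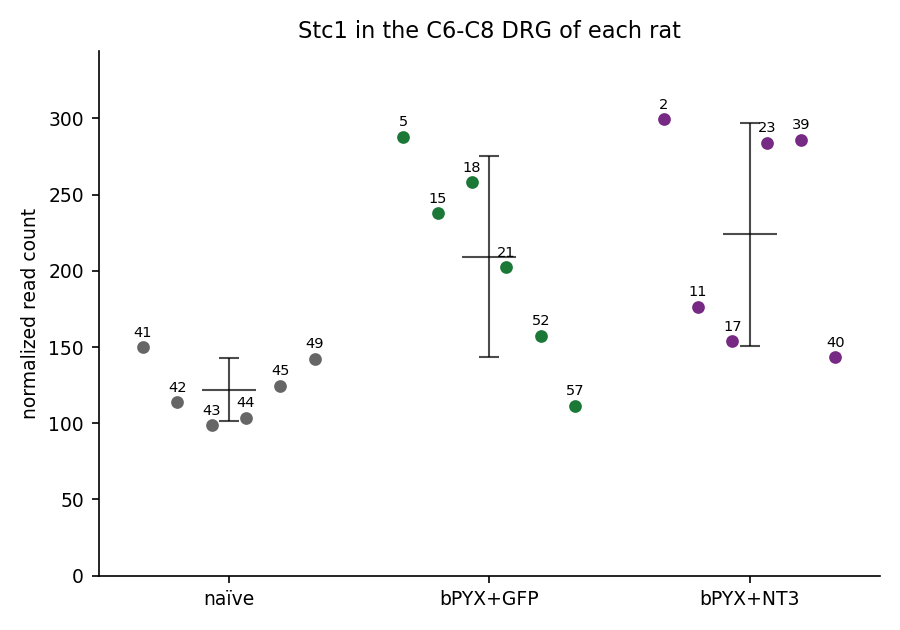
Normalized read count of *Stc1* in each rat (points, labelled with the rat number) by group (naïve, bPYX+GFP, bPYX+NT3), with the group mean and SD as lines. The naïve rats lie between 98.7 and 149.8 and 10 of the 12 injured rats lie above them.

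With NT3 the *Stc1* counts of injured rats overlapped those with GFP. The log2 fold change of bPYX+NT3 over bPYX+GFP rats was 0.10 (SE 0.248, 95% interval -0.43 to 0.63), and the bPYX+GFP median was exceeded by 3 of 6 bPYX+NT3 rats. That interval reaches from 0.741-fold to 1.55-fold, so that a moderate effect of NT3 in either direction is not resolved with 6 rats per group. If the groups of the titles recorded with the files are used in place of those of the table, the *Stc1* differences become -0.27 for bPYX+GFP and -0.94 for bPYX+NT3 against naïve rats and -0.67 between the injured groups, so the direction given here holds for the groups of the table only.

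*Stc2* (NM_022230), the paralog of *Stc1*, was near the limit of detection. It had 73 read-pairs over the 18 rats, from 2 to 8 in a rat, and did not pass the filter, which asks for over 10 reads in 6 or more of 12 rats. Naïve rats had 3.33 to 4.61 normalized counts (median 3.98), bPYX+GFP rats 1.94 to 6.34 (median 3.59) and bPYX+NT3 rats 1.97 to 6.24 (median 4.61). These ranges overlap throughout, and exact permutation tests gave p = 0.387, 0.673 and 0.392 for bPYX+GFP against naïve, bPYX+NT3 against naïve and bPYX+NT3 against bPYX+GFP rats. So few reads allow no statement on a change of *Stc2*.

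Because stanniocalcins bind pappalysins, a list of pappalysins, insulin-like growth factors, their binding proteins and receptors was looked at. Of the 10 listed symbols besides the stanniocalcins, 7 were in the table, and 6, 6 and 7 of them could be tested in the 3 comparisons. Absent were *Pappa* and *Pappa2*, which encode the pappalysins, and the growth factor *Igf1*. The tests therefore cover binding proteins, receptors and *Igf2*, and no pappalysin. By edgeR's quasi-likelihood test 0 of them passed an unadjusted p of 0.05 in any comparison, which for so short a list lies near the share of all genes (3.25% in bPYX+GFP and 6.01% in bPYX+NT3 against naïve rats, 1.73% between the injured groups). The smallest edgeR p-values belonged to *Igfbp4*, a binding protein cut by pappalysin (log2 fold change -0.12, SE 0.070, exact permutation p = 0.108), in bPYX+GFP and *Igf1r*, the receptor of insulin-like growth factor 1 (0.12, SE 0.076, exact p = 0.106), in bPYX+NT3 against naïve rats. Between the injured groups it was *Igf2*, a growth factor with few counts (-0.83, SE 0.387), at 6 to 21 reads in bPYX+GFP and 1 to 13 in bPYX+NT3 rats. *Igf2* exceeded 10 reads in 4 bPYX+GFP and 2 bPYX+NT3 rats, so that it passed the filter mainly through the group where it was higher. Its difference is therefore given as a description only, and *Igf2* fell below the filter in the other comparisons.

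No tested hypoxia-response member was called where *Stc1* was higher. Apart from *Stc1*, 5 members passed the filter, and by the quasi-likelihood test of edgeR 0 of 5 were called (unadjusted p under 0.05) in bPYX+GFP against naïve rats, where 3.25% of all 11601 genes were (0.733% higher and 2.52% lower). It was likewise 0 of 5 in bPYX+NT3 against naïve rats, beside 6.01% of 11693 genes (3.09% higher and 2.92% lower), and 0 of 5 in bPYX+NT3 against bPYX+GFP rats, beside 1.73% of 11623 genes (1.08% higher and 0.654% lower). With so few members, 0 calls lies near the background of each comparison. The likelihood ratio test and DESeq2 also called 0 of 5 in each comparison. After Benjamini-Hochberg adjustment over all genes, 0% of genes passed 0.05 in edgeR's quasi-likelihood test in each comparison, whereas the likelihood ratio test called 13 and DESeq2 17 genes in bPYX+GFP against naïve rats and 0 elsewhere.

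**Figure D2:**
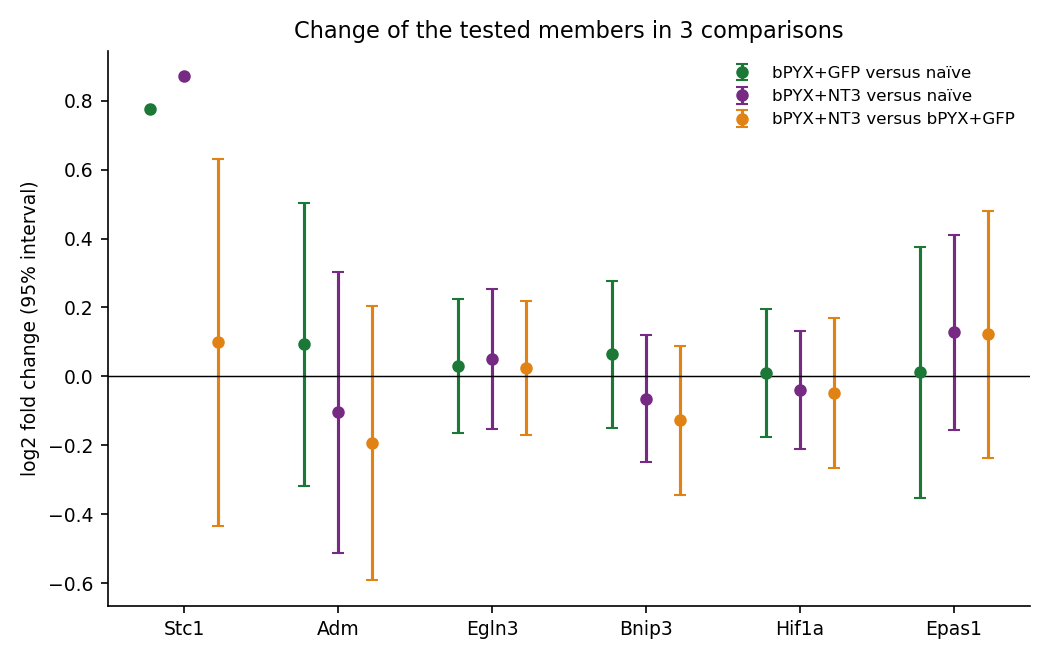
Log2 fold change (vertical axis) of the 6 members that passed the filter, in 3 comparisons (colours), with 95% intervals from edgeR as bars; *Stc1* against naïve rats is drawn without a bar because these values chose the gene. The intervals of the 5 other members include 0 in every comparison, and the height of the *Stc1* points at 0.78 and 0.87 was fixed by the choice of the gene.

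*Adm* (NM_012715) encodes adrenomedullin, a vasodilator peptide made under hypoxia. Naïve rats had 55.9 to 108.3 normalized counts (median 67.4), bPYX+GFP rats 50.4 to 92.8 (median 80.4) and bPYX+NT3 rats 50.3 to 87.2 (median 64.3). The 3 groups overlap, and the highest value was that of naïve rat 42. The log2 fold change was 0.09 (SE 0.191, 95% interval -0.32 to 0.50) for bPYX+GFP and -0.10 (SE 0.189, -0.51 to 0.30) for bPYX+NT3 against naïve rats, with edgeR p = 0.634 and 0.589 and exact permutation p = 0.621 and 0.654. For bPYX+NT3 against bPYX+GFP rats the value was -0.19 (SE 0.185, -0.59 to 0.21; edgeR p = 0.315, exact p = 0.316).

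*Egln3* (NM_019371), the prolyl hydroxylase that is itself induced by HIF, had much the same level in each group. Naïve rats had 281.2 to 389.1 normalized counts (median 322.2), bPYX+GFP rats 284.5 to 385.6 (median 328.4) and bPYX+NT3 rats 290.6 to 373.9 (median 340.9). The log2 fold changes were 0.03 (SE 0.091, 95% interval -0.17 to 0.23) and 0.05 (SE 0.095, -0.15 to 0.25) against naïve rats and 0.02 (SE 0.090, -0.17 to 0.22) between the injured groups. The exact permutation p-values were 0.799, 0.608 and 0.788.

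*Bnip3* (NM_053420) encodes a mitochondrial protein of mitophagy and cell death. Naïve rats had 7973 to 10495 normalized counts (median 9386), bPYX+GFP rats 7080 to 11004 (median 10211) and bPYX+NT3 rats 7647 to 10229 (median 9054). Rat 57 was the lowest of all and rat 11 the lowest of the bPYX+NT3 group. The log2 fold changes were 0.06 (SE 0.0997, 95% interval -0.15 to 0.28) for bPYX+GFP, -0.06 (SE 0.086, -0.25 to 0.12) for bPYX+NT3 against naïve rats and -0.13 (SE 0.10, -0.34 to 0.09) between the injured groups, with exact permutation p = 0.669, 0.457 and 0.331.

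*Vegfa*, the main angiogenic HIF target, could not be compared. The per-rat files list 13 RefSeq identifiers for it with 4 read-pairs over the 18 rats, and it is not among the identifiers of the table. The reads that overlap several identifiers are counted as ambiguous, and of the 506 symbols with several identifiers in these files 26.9% had no read in any rat, against 11.5% of the 15732 symbols with 1 identifier. The count therefore gives no level of *Vegfa* in DRG.

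The HIF alpha subunits were also without a called difference. *Hif1a* (NM_024359) ran from 3977 to 4781 normalized counts (median 4358) in naïve rats, 3246 to 4885 (median 4712) with bPYX+GFP and 3429 to 4660 (median 4485) with bPYX+NT3. Its log2 fold changes were 0.01 (SE 0.086, 95% interval -0.18 to 0.19), -0.04 (SE 0.080, -0.21 to 0.13) and -0.05 (SE 0.101, -0.27 to 0.17) in bPYX+GFP and bPYX+NT3 against naïve rats and between the injured groups, with exact permutation p = 0.950, 0.589 and 0.723. *Epas1* (NM_023090), which encodes HIF-2 alpha and is best known in endothelium, ran from 546.2 to 829.9 (median 704.5), from 541.7 to 1070 (median 612.4) and from 611.7 to 931.0 (median 752.8) in the same groups. Its log2 fold changes in the same order were 0.01 (SE 0.169, -0.35 to 0.38), 0.13 (SE 0.132, -0.16 to 0.41) and 0.12 (SE 0.166, -0.24 to 0.48), with exact permutation p = 0.909, 0.383 and 0.403. Rat 57 held the lowest *Hif1a* and the highest *Epas1* of all 18 rats, and rat 11 held the next lowest and the next highest.

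**Figure D3:**
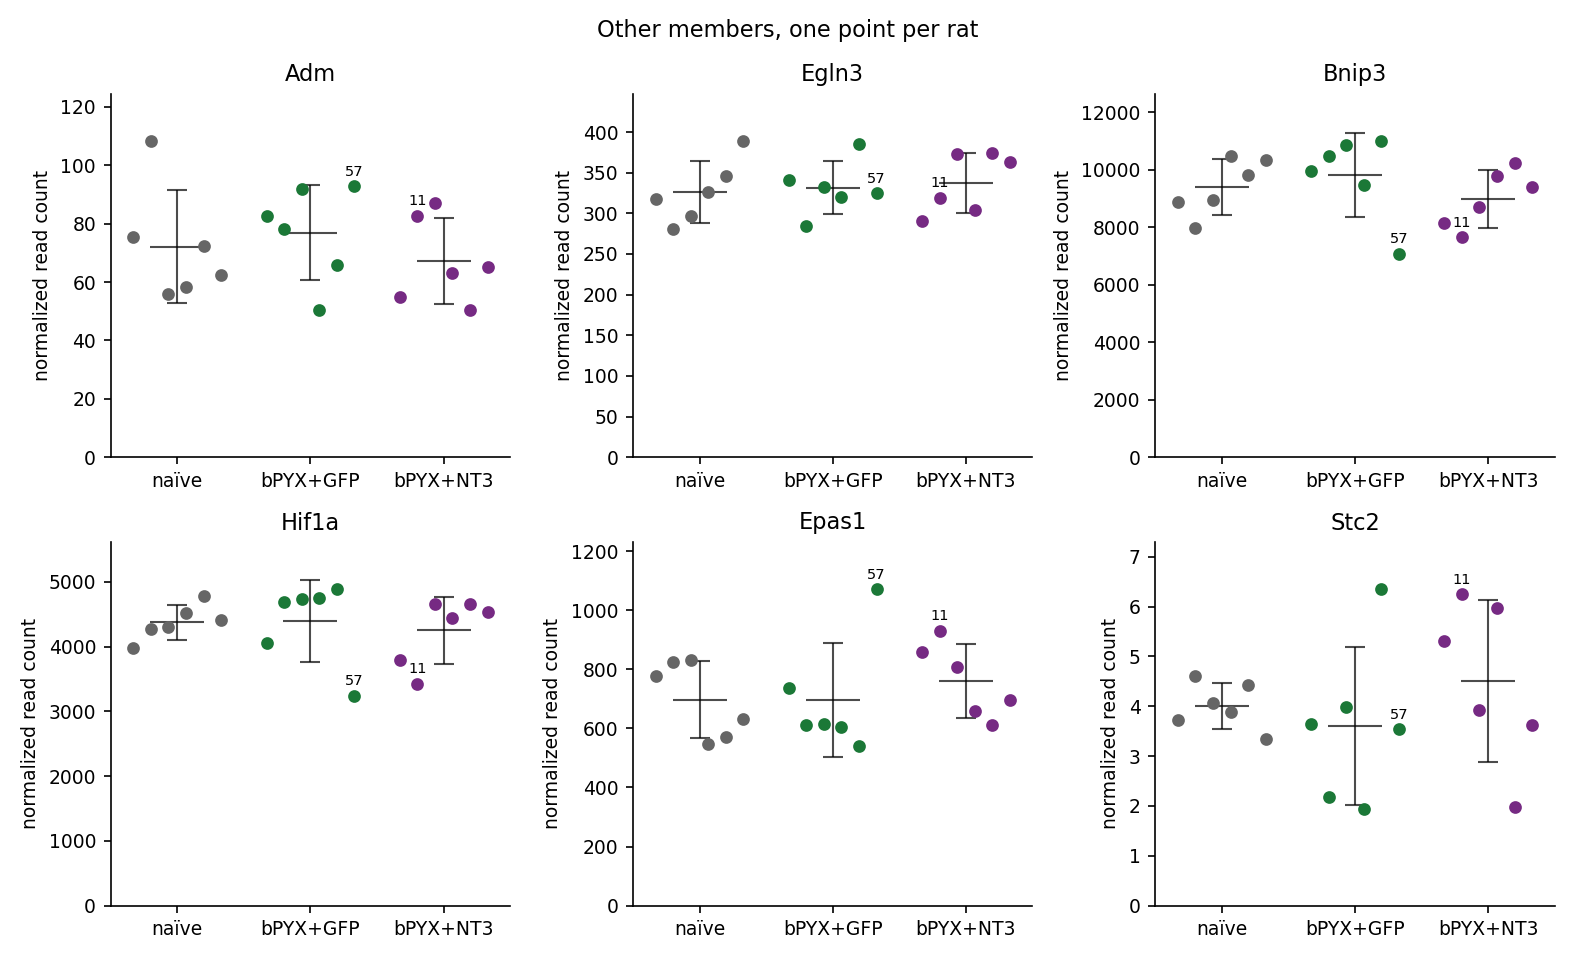
Normalized read counts of *Adm*, *Egln3*, *Bnip3*, *Hif1a*, *Epas1* and *Stc2* in each rat (points) by group, with group means and SD as lines and rats 57 and 11 labelled. The groups overlap in every panel, and rat 57 lies apart from its group for *Bnip3*, *Hif1a* and *Epas1*.

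Rat 57 decided a pair of these results. Without it, *Epas1* was higher by 0.29 (SE 0.115) and *Bnip3* lower, at -0.20 (SE 0.077), in bPYX+NT3 against bPYX+GFP rats, both with an unadjusted p under 0.05 in edgeR, so that 2 of 5 members were called. The background rose with them, since 2291 of 11556 genes (19.8%) then had p under 0.05. Without rat 57, 0 of 5 members were called against naïve rats, where 5.16% of genes were, and without rat 11 it was 0 of 5 in both comparisons that hold bPYX+NT3 rats.

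Among themselves the members varied in opposite directions from rat to rat. With each rat centred on its group mean (log2 CPM, 18 rats), Pearson's r between *Hif1a* and *Bnip3* was 0.83 (Spearman's rho 0.69), between *Hif1a* and *Epas1* -0.86 (rho -0.77) and between *Epas1* and *Bnip3* -0.93 (rho -0.88). Without rat 57 these r were 0.68, -0.75 and -0.88. They are the largest of the 15 pairs of the 6 tested members and were picked after all were seen, so no p is given. The same genes followed how the reads were assigned: r with the share of read-pairs on overlapping genes was -0.93 for *Hif1a*, -0.86 for *Bnip3* and 0.84 for *Epas1*, and -0.23 for *Egln3*. The summed counts of the 5 neuron markers were highest in rats 57 and 11, with 57987 and 63816. Their r was -0.94 with *Hif1a*, -0.80 with *Bnip3* and 0.81 with *Epas1*, whereas the sums of the 6 endothelium markers had -0.19, -0.41 and 0.41. Abundant markers weigh most in such a sum, and the neuron markers did not all go the same way. In bPYX+NT3 against naïve rats *Isl1* was at -0.11 and *Rbfox3*, *Tubb3*, *Prph* and *Nefh* at 0.19, 0.36, 0.45 and 0.18, without a call in edgeR. The neuron sum and the share on overlapping genes had an r of 0.97 (rho 0.91), so these measures cannot be told apart in these rats. The part of the read assignment and of cell composition in these values was not tested.

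**Figure D4:**
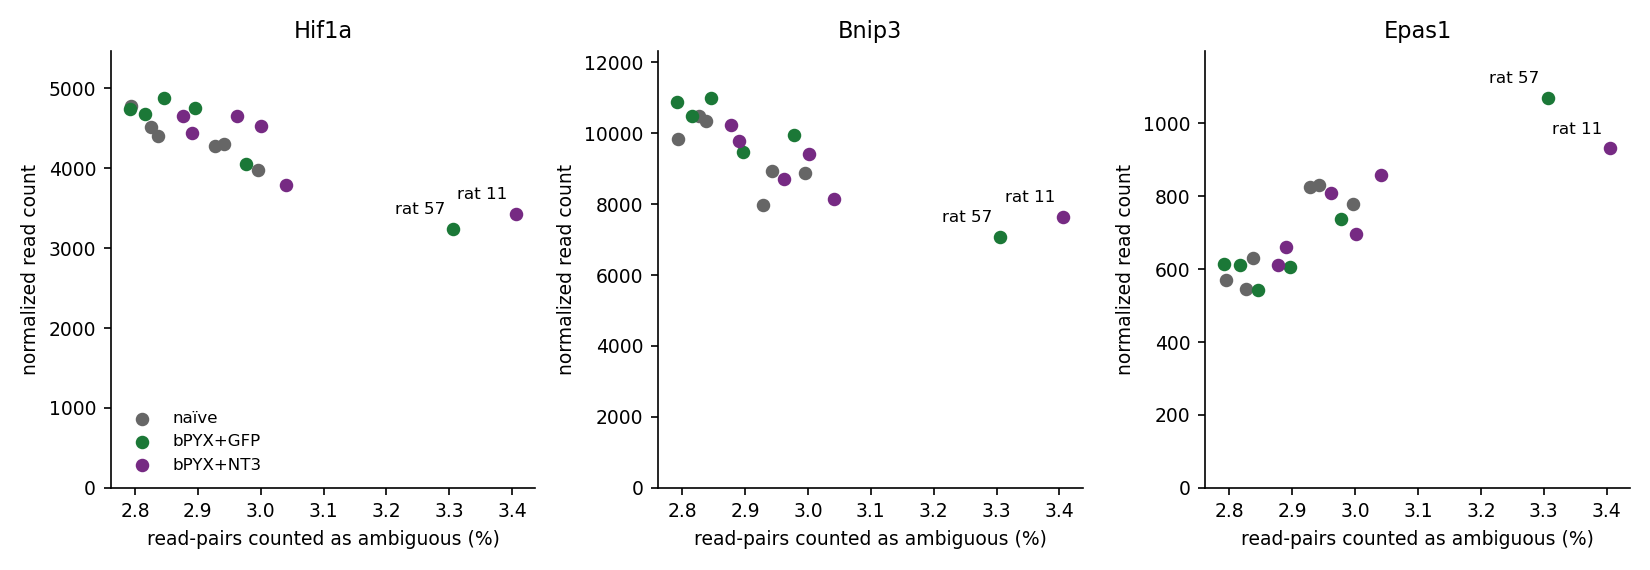
Normalized read counts of *Hif1a*, *Bnip3* and *Epas1* (vertical axes) against the percentage of read-pairs counted as ambiguous (horizontal axis) in each rat, coloured by group, with rats 57 and 11 labelled. *Hif1a* and *Bnip3* are lower and *Epas1* is higher in rats with a larger share, within each group.

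*Stc1* did not follow the other members closely within groups. Over the 18 rats centred on their group means, r with *Stc1* was 0.45 for *Bnip3* (rho 0.25), 0.22 for *Hif1a* (rho -0.07), -0.18 for *Egln3* (rho -0.19), -0.23 for *Adm* (rho -0.19) and -0.35 for *Epas1* (rho -0.21). Permutation within groups gave p = 0.0986, 0.472, 0.489, 0.372 and 0.194 for r and 0.350, 0.825, 0.483, 0.478 and 0.416 for rho. Adjusted over the 6 members compared, *Stc2* included, the smallest values were 0.582 for r and 0.724 for rho. Leaving out rats 2 and 5, farthest from the median of *Stc1*, gave r of 0.58 for *Bnip3*, 0.42 for *Hif1a*, -0.11 for *Egln3*, -0.24 for *Adm* and -0.52 for *Epas1*. Without rat 57 the r of *Bnip3* was 0.13 and that of *Epas1* -0.0046, so these relations rest largely on that rat.

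The genes whose counts were most like those of *Stc1* from rat to rat were *Rad54b*, a gene of homologous recombination repair, a gene with no symbol in the annotation used (NM_001106396), *Acot2*, a mitochondrial acyl-CoA thioesterase, *Slc10a5*, of the bile acid transporter family, and *Pdk4*, a kinase that holds back pyruvate dehydrogenase. Their r with *Stc1* was 0.83, 0.81, 0.80, 0.79 and 0.78 among 11543 genes, over the 18 rats centred on group means. These are the 5 highest of many values, and the gene at rank 100 had 0.62, so that the likeness is given as a description. Of the 5, *Pdk4* alone was called in edgeR against naïve rats, in bPYX+NT3 rats (log2 fold change 0.32), and only just passed the threshold. Over all genes 3.25% were called in bPYX+GFP and 6.01% in bPYX+NT3 against naïve rats. A single call among 5 genes is too few to set them apart from these shares.

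The wider hypoxia response was read from 56 other listed genes of HIF control, glycolysis and further HIF targets, of which 52 were in the table and 45 could be tested. In bPYX+GFP against naïve rats 0 of 45 were higher and 2 lower, where 0.733% and 2.52% of all genes were, and the median log2 fold change was 0.04 against 0.01 over all genes. In bPYX+NT3 against naïve rats 4 were higher and 3 lower (15.6% of the list, 6.01% of all genes), with a median of 0.08 against 0.00051. Without rat 11 the 7 calls became 3 of 45, beside 3.14% of all genes, and the median was 0.05. Over the 12 fits with a rat left out the list had 3 to 15 calls, where 365 to 1387 of all genes were called. Between the injured groups 0 of 45 were called, with a median of 0.08 against 0.0049, and without rat 57 it was 13 of 45 (28.9%), beside 19.8% of all genes.

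Of 7 tested genes of HIF control besides the members, 0 had p under 0.05 in any comparison in edgeR, which with 7 genes lies near the 3.25%, 6.01% and 1.73% of all genes. Closest were *Vhl*, the ligase subunit that recognizes hydroxylated HIF (-0.07, SE 0.053, exact permutation p = 0.104), in bPYX+GFP and *Egln2*, another prolyl hydroxylase (0.63, SE 0.303, exact p = 0.145), in bPYX+NT3 against naïve rats. *Egln2* was called in 4 of 12 fits with a rat left out and was at 0.34 without rat 11. Without rat 57, 2 of the 7 genes were called between the injured groups, beside 19.8% of all genes. Between the injured groups the closest was *Cited2*, which competes with HIF for its coactivator (-0.21, SE 0.149, exact permutation p = 0.260).

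Among 17 tested genes of glucose uptake and glycolysis, edgeR called 0 in bPYX+GFP against naïve rats and 0 between the injured groups, near the 3.25% and 1.73% of all genes. The smallest edgeR p-values there were those of *Hk2*, a hexokinase (-0.34, SE 0.251, exact permutation p = 0.219), and of *Pfkfb3* (0.20, SE 0.118, exact p = 0.106). In bPYX+NT3 against naïve rats 2 of 17 were higher, beside 3.09% of all genes. *Pfkfb3*, which makes the activator of phosphofructokinase, rose by 0.26 (SE 0.101, p = 0.0211, exact permutation p = 0.0346), from a median of 547.4 normalized counts (452.4 to 657.7) in naïve to 659.3 (581.1 to 788.9) in bPYX+NT3 rats. It was called in 12 of 12 fits with a rat left out. *Aldoc*, the brain type aldolase, rose by 0.36 (SE 0.168, edgeR p = 0.0492, exact p = 0.108) but was called in 4 of 12 such fits, and without rat 11, which had 5250 normalized counts, the difference was 0.18 and was not called. In each of the 3 comparisons, which share rats, 15 of the 17 log2 fold changes were above 0. The medians were 0.07 in bPYX+GFP and 0.26 in bPYX+NT3 against naïve rats and 0.18 between the injured groups. Over all genes they were 0.01, 0.00051 and 0.0049. Without rat 57 the 0.07 became -0.016 and the 0.18 became 0.28. Without rat 11 the 0.26 became 0.13 and the 0.18 became 0.03. Between the injured groups 7 of 17 were called without rat 57, each higher with NT3, beside 19.8% of all genes.

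Of the 21 tested genes among other HIF targets, 0 were higher and 2 lower in bPYX+GFP against naïve rats (3.25% of all genes were called), 2 were higher and 3 lower in bPYX+NT3 against naïve rats (6.01%) and 0 were called between the injured groups (1.73%). Without rat 57, 4 were called in bPYX+GFP against naïve rats, 0 of them higher, beside 5.16% of all genes. Between the injured groups 4 were then called, 3 of them higher, beside 19.8% of all genes. Without rat 11 the 5 calls in bPYX+NT3 against naïve rats became 2, with 0 higher, beside 3.14% of all genes. *P4ha1*, a subunit of the prolyl hydroxylase of collagen, fell in both injured groups. Naïve rats had 1657 to 2106 normalized counts (median 1900), bPYX+GFP rats 1157 to 1864 (median 1484) and bPYX+NT3 rats 1323 to 1828 (median 1504), and in each injured group 6 of 6 rats lay below the naïve median and 4 below every naïve rat. The log2 fold changes were -0.31 (SE 0.101, edgeR p = 0.00854, exact permutation p = 0.0216) and -0.28 (SE 0.084, p = 0.00516, exact p = 0.0108), with the same naïve rats in both, and each was called in 12 of 12 such fits. Of 5 fibroblast and perineurium markers, 2 were lower with an edgeR p under 0.05 in each of these comparisons. They were *Col1a1* in both (-0.49 and -0.34), *Lum* in bPYX+GFP (-0.23) and *Dcn* in bPYX+NT3 rats (-0.28). *Pdgfra* was lower without a call (-0.08 and -0.20). *Slc2a1*, which is also in the glycolysis list, went the other way without a call (0.08 and 0.27). The summed counts of these markers were 22131 to 30352, 21409 to 27337 and 17351 to 28855 in the same order of groups. Whether *P4ha1* moved through these cells was not tested.

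The other calls among HIF targets were found in a single comparison each. *Edn1*, the vasoconstrictor endothelin-1, fell by 0.51 on the log2 scale in bPYX+GFP rats (SE 0.227, edgeR p = 0.0415, exact permutation p = 0.0541), in 3 of 12 fits without a rat. In bPYX+NT3 rats *Angptl4*, an inhibitor of lipoprotein lipase, rose by 0.68 (SE 0.277, exact permutation p = 0.102, called in 9 of 12 fits, 0.43 without rat 17) and *Car12*, a carbonic anhydrase, by 0.68 (SE 0.303, exact p = 0.0390, 5 of 12 fits). In the same comparison *Tfrc*, the transferrin receptor, fell by 0.29 (SE 0.122, exact permutation p = 0.0563, 6 of 12 fits) and *Ndrg1*, abundant in Schwann cells, by 0.16 (SE 0.064, exact p = 0.0152, 10 of 12 fits). Of these, *Angptl4* came closest to a difference between the injured groups (0.65, SE 0.320, exact permutation p = 0.136).

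**Figure D5:**
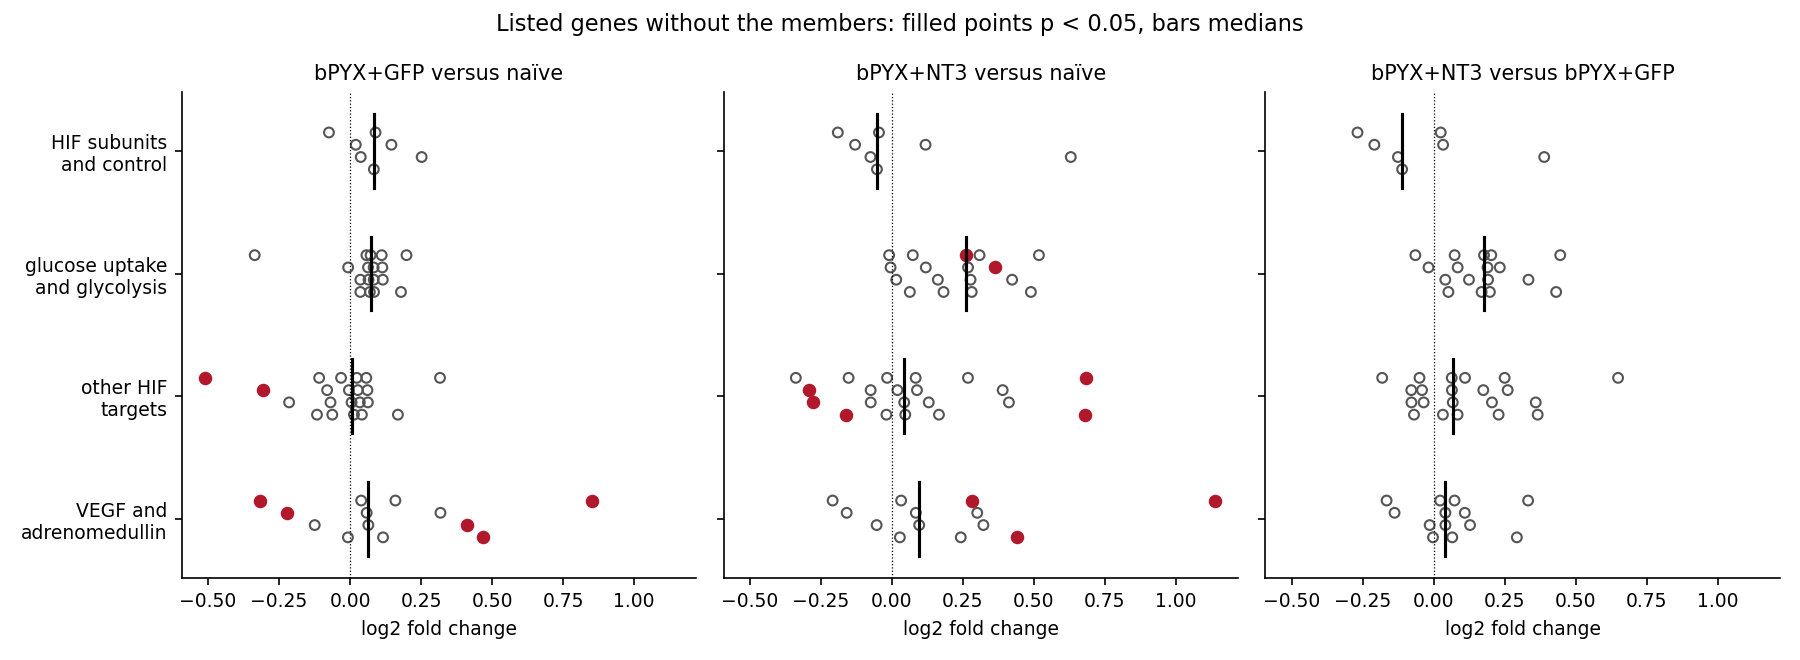
Log2 fold changes (horizontal axes) of the tested genes of 4 lists, members left out, in 3 comparisons (panels), with the list median as a bar and genes with an unadjusted edgeR p under 0.05 as filled points. No gene is filled between the injured groups, and filled points lie on both sides of 0 against naïve rats.

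Ligands and receptors related to *Vegfa* and *Adm* were called in both comparisons with naïve rats. Of 13 tested ligands and receptors, 3 were higher and 2 lower in bPYX+GFP and 3 higher in bPYX+NT3 rats against naïve rats, and 0 differed between the injured groups in edgeR, where *Ramp3* came closest (0.33, SE 0.219, exact permutation p = 0.145). Over all genes 0.733% were higher and 2.52% lower in bPYX+GFP rats, 3.09% higher in bPYX+NT3 rats and 1.73% called between the injured groups. *Flt4*, the receptor of Vegfc and Vegfd, was higher in both, by 0.85 (SE 0.259) and 1.14 (SE 0.290), and 6 of 6 rats of each injured group lay above every naïve rat, at low levels of 5.56 to 14.0, 15.2 to 27.4 and 15.7 to 36.7 normalized counts in naïve, bPYX+GFP and bPYX+NT3 rats. In bPYX+GFP rats the ligands *Pgf* (0.47, SE 0.178, exact permutation p = 0.0281) and *Vegfc* (0.41, SE 0.162, exact p = 0.0303) rose. The ligand *Vegfb* (-0.32, SE 0.099, exact permutation p = 0.0238) and *Calcrl*, a component of adrenomedullin receptors (-0.22, SE 0.0997, exact p = 0.0541), fell. In bPYX+NT3 rats the receptor *Flt1* (0.28, SE 0.119, exact permutation p = 0.0476) and *Ramp3*, a partner of Calcrl (0.44, SE 0.186, exact p = 0.0498), rose. Its other listed partners were not called in bPYX+GFP or bPYX+NT3 rats, *Ramp1* at 0.04 and 0.03 and *Ramp2* at -0.0078 and 0.028. *Flt4* exceeded 10 reads in 3 naïve rats and in 6 rats of each injured group, so that it passed the filter through the injured rats. Its calls, counted above in both comparisons, are therefore given as a description only. Without a filter the differences were 0.85 and 1.13. This cannot test the selection, since the filter decides which genes are tested and leaves the counts of *Flt4* unchanged. *Ramp3* was at 0.29 and was not called without rat 11. *Pgf* and *Vegfb* were called in 12 of 12 fits without a rat, *Flt1* and *Ramp3* in 8, *Vegfc* in 7 and *Calcrl* in 4. Of the 6 endothelium markers, *Tie1* was higher in bPYX+GFP rats (0.30, called in edgeR) and the other 5 were not called in either comparison, and the summed counts overlapped (1751 to 2290, 1847 to 2176 and 1682 to 2474 in the same groups).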

How the data were processed

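Poly(A) RNA libraries of 18 rats were analysed, 6 in each group. Per the labels and the study's methods, the authors demultiplexed with bcl2fastq 1.8.4, aligned 50 bp paired reads to Rnor_6.0 with TopHat2, removed duplicates with Picard and deposited raw counts per RefSeq identifier from HTSeq, which are not normalized; reads on several genes or locations were left out. Groups followed the labels of the table's columns. The members and gene lists were chosen with earlier results of these data known. The groups were fitted pair by pair in edgeR 4.0.16 (R 4.3.3; TMM, quasi-likelihood test, no covariate), keeping genes that exceeded 10 reads in 6 or more of the 12 rats. As in the study, a call is an unadjusted p under 0.05, with Benjamini-Hochberg adjustment over all genes beside it. SE is the absolute log2 fold change over the square root of F, and intervals are 95%. Exact permutation tests (two-sided, 924 splits, smallest p 0.00216) used log2 CPM with a prior count of 2, and correlations used 100000 permutations within groups (Python 3.11.15, numpy 2.4.6, scipy 1.17.1). Symbols matched 14193 of 15075 identifiers through RefSeq. Genes named were the members, listed genes with p under 0.05 or else the smallest p of a list (the 3 smallest where more than 8 passed), and the 5 most like *Stc1*. Alternatives were the likelihood ratio test, DESeq2 1.42.0 and its size factors, library size alone, no filter, a filter on the mean, 1 fit over 3 groups, the recorded titles and leaving out each rat. A replicate block, and the share of reads on no feature as a covariate, were added after seeing the data. The fits were tested on simulated data. Small RNAs were not analysed here.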

Additional observations from a re-analysis of the deposited data

Results flagged for a closer look

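Of 87 groups of 6 rats looked at (the members and the listed genes named), 10 held a rat whose normalized count lay far from the other 5 by Dixon's criterion (the gap to the nearest rat over the group's range), where chance gives about 1 in 20. Rat 57 of the bPYX+GFP group accounted for 4, with the highest *Epas1* (1070 against 737.4 in the nearest rat), *Egln2* (297.0 against 138.5), *Aldoc* (4605 against 2949) and *Flt4* (27.4 against 17.3). In the same group rat 5 had 114.2 of *Angptl4* (nearest 68.1) and rat 15 had 1011 of *Igfbp4* (nearest 894.9). In the bPYX+NT3 group rat 17 had 155.8 of *Hk2* (nearest 69.5) and 756.5 of *Vegfb* (nearest 540.6), and rat 11 had 167.0 of *Ramp3* (nearest 111.7). Among naïve rats, rat 42 had 108.3 of *Adm* (nearest 75.4). *Stc1* had no such rat in any group.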

How the results depend on the processing

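Direction and side of the threshold were kept for *Adm*, *Egln3* and *Hif1a* under every alternative and comparison, apart from sign changes smaller than the spread between rats. Of 330 alternative values for the 5 tested members, 3 had p under 0.05, *Epas1* and *Bnip3* without rat 57 (-0.20 for *Bnip3*) and *Epas1* with the replicate block. With the groups of the table, the *Stc1* difference from naïve rats ranged from 0.66 to 0.90 in bPYX+GFP and from 0.77 to 0.98 in bPYX+NT3 rats, and that between injured groups from -0.03 to 0.27. The correlation of *Hif1a* with *Stc1* changed sign with Spearman's rho (-0.065). At 10 reads per rat counting error alone is large, which limits *Stc2*, *Igf2* and *Flt4*.

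Leaving out each rat in turn gave from 272 to 595, from 365 to 1387 and from 95 to 2291 genes with p under 0.05 in bPYX+GFP and bPYX+NT3 against naïve rats and between the injured groups. It gave 1 to 4, 3 to 15 and 0 to 13 called genes of the hypoxia list, 0 to 0, 0 to 0 and 0 to 2 called members, and 0 to 1, 0 to 0 and 0 to 0 genes with an adjusted p under 0.05. The upper counts of 595, 2291, 13 and 4 were those without rat 57. For bPYX+NT3 against naïve rats, 1387 genes were called without rat 23 and 1185 without rat 41, 365 without rat 11, 433 without rat 2, and 399, 401 and 395 without rats 44, 45 and 49; between injured groups, 95 were called without rat 11, 112, 127 and 125 without rats 15, 18 and 17, and 390 without rat 23. The hypoxia list then had 15 calls without rat 41, 12 without rat 42, 23 or 39 and 3 or 4 without rat 11, 44, 45 or 49 in bPYX+NT3 against naïve rats, 1 without any of rats 41, 42, 43, 45, 49, 5, 15, 18 and 21 in bPYX+GFP against naïve rats, and 2 or 1 without rat 5, 23, 39, 52 or 40 between the injured groups.

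The labels also number the rats of each group as replicates, in the order of their rat numbers. They do not say that rats of different groups with the same replicate number share anything else. The deviations of such rats from the group means correlated above 0.1 in 2, 5 and 3 of 6 pairs in bPYX+GFP and bPYX+NT3 against naïve rats and between the injured groups. They ran from -0.30 to 0.53 in the second of these, and 1, 3 and 1 of 6 rats correlated best with the rat of their own replicate number. The labels give no pairing of rats, so the fits with a replicate block are given as an alternative only. With the replicate block, called genes numbered 316, 2962 and 130 (377, 703 and 201 without it), called hypoxia genes 1 in bPYX+GFP and 19 in bPYX+NT3 against naïve rats (2 and 7 without it), and *Epas1* was the 1 called member, in bPYX+NT3 against naïve rats (0.13). With the share of reads on no feature as a covariate, 848 genes were called between bPYX+GFP and naïve rats (17 after adjustment) and 3 hypoxia genes between bPYX+NT3 and naïve rats. After adjustment, the genes called in bPYX+GFP against naïve rats numbered 13 with the likelihood ratio test and 17 with DESeq2. Between the injured groups, no filter gave 315 called genes, and the likelihood ratio test, DESeq2, library size alone and 1 fit over 3 groups each called 1 hypoxia gene, as did the last of these between bPYX+GFP and naïve rats. The cause of these differences was not tested.

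With the groups of the recorded titles, 174 and 330 genes were called against naïve rats, 1 of them after adjustment in bPYX+NT3 rats, and 1, 4 and 1 hypoxia genes in the 3 comparisons. In bPYX+GFP against naïve rats the log2 fold changes that took the other sign were *Stc1* -0.27, *Egln2* -0.47, *Aldoc* -0.23, *Edn1* 0.37, *Angptl4* -0.83, *Tfrc* 0.15, *Flt4* -0.37, *Vegfb* 0.021 and *Pgf* -0.072. The same was found for *Vegfc* -0.11, *Calcrl* 0.095 and *Flt1* -0.20. In bPYX+NT3 against naïve rats the log2 fold changes that took the other sign were *Stc1* -0.94, *Egln2* -0.48, *Pfkfb3* -0.21, *Aldoc* -0.25, *P4ha1* 0.15, *Edn1* 0.45, *Ndrg1* 0.067, *Angptl4* -0.82 and *Tfrc* 0.30. The same was found for *Car12* -0.32, *Igf1r* -0.061, *Flt4* -0.71, *Vegfb* 0.076, *Pgf* -0.33, *Vegfc* -0.31, *Calcrl* 0.13, *Flt1* -0.29 and *Ramp3* -0.14. In bPYX+NT3 against bPYX+GFP rats the log2 fold changes that took the other sign were *Stc1* -0.67, *Pfkfb3* -0.17, *Ndrg1* 0.10, *Tfrc* 0.16, *Car12* -0.32, *Igfbp4* -0.076, *Flt4* -0.34 and *Flt1* -0.091.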
